A study of Mus musculus with 4 samples.

Results

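The Period, cryptochrome and clock output genes examined here were *Per1*, *Per2*, *Per3*, *Cry1*, *Cry2*, *Ciart*, *Dbp*, *Nr1d1*, *Bhlhe41* and *Arntl*. These 10 genes, of 21462 in the deposited table, were chosen by name with their Tet3 mutant and control values already known, so the difference between the groups is given for them as a description, without a test. All 10 were found in the table and all 10 exceeded the minimum mean of 10 normalized counts over the libraries, which 16659 genes reached. RNA was sequenced from smooth muscle cells of the mouse lung, with 2 control libraries (labelled WT) and 2 Tet3 mutant libraries (labelled Mut), to ask how loss of TET3, an enzyme that oxidizes 5-methylcytosine to 5-hydroxymethylcytosine, changes gene expression. By the study's methods the mice were of the C57BL/6 background and received tamoxifen as young adults. Mutants carried floxed *Tet3*, a tamoxifen-inducible Cre under the α-SMA promoter and a tdTomato reporter, whereas controls lacked the floxed allele but carried the Cre allele and/or the reporter. Blood-derived cells were depleted with CD45 and Ter-119 beads, and tdTomato-positive cells were then sorted. The α-SMA promoter marks vascular and airway smooth muscle alike and can mark other contractile cells. The animals were kept in a controlled light and dark cycle. The hour at which lungs were collected, the interval after tamoxifen and the sex of each animal are not given in the sources used here.

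The circadian clock is a feedback loop of transcription. The activators BMAL1, encoded by *Arntl*, and CLOCK bind E-box sequences and switch on *Per* and *Cry* genes, whose proteins return to the nucleus and repress the activators. A second loop runs through the nuclear receptors REV-ERBα, encoded by *Nr1d1*, and ROR, which repress and activate *Arntl* through shared elements, so that *Arntl* transcripts peak when those of *Dbp* and *Nr1d1* are low. DBP is a PAR bZIP factor that carries the rhythm to D-box elements of further genes, and *Ciart* and *Bhlhe41* encode additional repressors of the activators. Nearly every lung cell type holds such a clock, and in smooth muscle it is known to influence contractility. *Per1* responds in addition to cAMP and glucocorticoid signals.

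The elements through which this loop works can be read in the promoters of the genes. RefSeq start sites on GRCm38.p6 gave windows of 250 bases before to 50 after the start for 9 of the 10 genes, in 11 promoters, with no entry used for *Per2*. Both strands were searched for the E-box CACGTG, the related E'-box CACGTT, the D-box as TTATGTAA or TTACGTAA, the ROR element core as TAGGTCA or TGGGTCA, and the cAMP response element as TGACGTCA. 5 windows are shown, from 5′ to 3′ on the strand of the gene, because they hold these elements in genes described below. Matches are in capitals.
Per1, chr11:69098699-69098998, plus strand: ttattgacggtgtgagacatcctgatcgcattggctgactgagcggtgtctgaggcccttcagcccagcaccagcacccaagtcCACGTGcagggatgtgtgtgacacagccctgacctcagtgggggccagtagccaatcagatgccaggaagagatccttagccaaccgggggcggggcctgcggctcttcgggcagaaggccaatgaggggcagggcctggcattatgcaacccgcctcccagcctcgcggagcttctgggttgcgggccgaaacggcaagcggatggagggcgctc
Per3, chr4:151044616-151044915, minus strand: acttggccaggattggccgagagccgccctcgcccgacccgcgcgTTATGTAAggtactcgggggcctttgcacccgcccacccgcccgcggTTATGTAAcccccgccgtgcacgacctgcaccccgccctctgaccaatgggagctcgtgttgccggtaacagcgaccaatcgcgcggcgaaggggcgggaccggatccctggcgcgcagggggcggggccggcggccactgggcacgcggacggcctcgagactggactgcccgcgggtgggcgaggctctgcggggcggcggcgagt
Ciart, chr3:95882179-95882478, minus strand: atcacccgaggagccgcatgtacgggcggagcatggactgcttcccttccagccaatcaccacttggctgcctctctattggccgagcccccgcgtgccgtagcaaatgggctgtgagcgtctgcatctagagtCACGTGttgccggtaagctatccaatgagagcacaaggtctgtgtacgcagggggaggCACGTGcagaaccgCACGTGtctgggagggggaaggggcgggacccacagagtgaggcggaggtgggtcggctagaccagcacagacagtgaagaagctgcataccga
Bhlhe41, chr6:145865371-145865670, minus strand: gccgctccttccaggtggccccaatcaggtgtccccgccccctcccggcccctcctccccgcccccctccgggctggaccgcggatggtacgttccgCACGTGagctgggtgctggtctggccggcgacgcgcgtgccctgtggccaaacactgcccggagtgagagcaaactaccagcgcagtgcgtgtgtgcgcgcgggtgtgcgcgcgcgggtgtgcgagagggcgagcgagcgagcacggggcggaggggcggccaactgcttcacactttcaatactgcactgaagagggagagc
Arntl, chr7:113207261-113207560, plus strand: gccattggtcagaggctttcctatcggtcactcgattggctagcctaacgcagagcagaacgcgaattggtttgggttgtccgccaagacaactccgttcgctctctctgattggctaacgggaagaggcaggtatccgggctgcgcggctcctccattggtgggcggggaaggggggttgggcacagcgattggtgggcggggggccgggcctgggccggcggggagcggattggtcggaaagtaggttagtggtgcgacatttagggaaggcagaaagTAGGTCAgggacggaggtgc

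The capitals mark E-boxes in *Per1*, *Ciart* and *Bhlhe41*, D-boxes in *Per3* and a ROR element core in *Arntl*. *Ciart* held 3 E-boxes, at positions -116, -58 and -44 from the start site, and *Per1* held 1 at -166. *Bhlhe41* held 1 at -153. In *Per3* both matches were the D-box TTATGTAA, at -205 and -158. The *Arntl* window shown was that of the second of its RefSeq start sites, and its ROR element core TAGGTCA lay at position 31 after the start. Over the 11 promoters the E-box was present in 36.4% (4 genes, with *Cry1*), against 7.15% of all 32851 promoters in the table and 9.43% of 53 promoters of other clock genes. The E'-box occurred in 27.3% of the 11 (*Cry1*, *Cry2* and *Nr1d1*), against 4.68% of all promoters. The D-box was in 1 of the 11 (9.09%, against 1.06%) and the ROR core in 1 (9.09%, against 6.45%). The 11 include more than 1 window each for *Per1* and *Arntl*, and those of *Arntl* overlap. The cAMP response element was in none of the 11 windows and in 1.79% of all promoters, and the palindromic glucocorticoid response element was in none of the 11 and in 0.475%. The shorter core TGACG, which the full cAMP response element contains, was found in 36.4% of the 11 (*Per1*, *Cry1* and *Cry2*) and in 20.8% of all promoters. Such matches describe letters within these windows only.

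Depth was similar among libraries. The deposited totals were 6805272 to 7164573, and the reads behind them, estimated from the spacing of low values, were 6324000 to 7557000 per library. The labelled cell type was checked with its markers. All 10 smooth muscle markers were detected, at summed levels of 5108 and 6747 normalized counts in the control pair, against 7952 and 7612 in the mutant pair, but markers of fibroblasts (17860 to 23040), endothelium (15047 to 17023), alveolar type 2 cells (11307 to 25097) and macrophages (9552 to 13451) were present as well. In such bulk RNA, fewer cells of a type and less RNA per cell cannot be told apart. Control replicate 2 stood apart from the other libraries. Among 10888 abundant genes, 388 lay over 2-fold away from every other library in this one, against 10 to 73 such genes for the other libraries, and it had 2 normalized counts of the X-linked *Xist* and 774 of the Y-linked *Ddx3y*, where the others had 5214 to 6781 and 0. By these 2 transcripts control replicate 2 was male and the other libraries were female, so sex was not balanced between the groups. Values without control replicate 2 are given where they moved a result of the 10 genes. Control replicate 1 had features of its own, as it was the lowest library for 9 of 10 smooth muscle markers, beside 19.2% of all genes. Erythroid markers summed to 314 in it, against 4 in control replicate 2 and 17 and 29 in the mutant pair. *Tet3* itself, counted over the whole gene and not over the deleted part alone, had 1847 and 1926 normalized counts in the control pair, against 1534 and 1444 in the mutant pair.

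The Period genes were lower in both mutants than in both controls. *Per1*, which encodes a repressor of the activators and is also induced acutely by hormones, had 1429 normalized counts in control replicate 1 and 1336 in control replicate 2, against 596 in the first mutant and 761 in the second. The means were 1382.5 ± 65.8 and 678.5 ± 117 (SD, n = 2 each), a difference of -1.04 on the log2 scale (SE 0.15), or 2.05-fold lower. The gap between the lowest control and the highest mutant was wider than the spread inside either group. Without control replicate 2 the log2 fold change of *Per1* was -1.08, and over the removal of each library in turn it lay between -1.21 and -0.86.

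*Per2*, whose protein is a core repressor that binds cryptochromes, had 673 and 545 normalized counts in the control pair, against 337 and 440 in the mutant pair, 609 ± 90.5 against 388.5 ± 72.8 (SD, n = 2 each). Its log2 fold change was -0.65 (SE 0.19), and it was -0.80 without control replicate 2. *Per3*, which is less essential for rhythm than the other two, had 1091 and 754 in the control pair, against 541 and 600 in the mutant pair, 922.5 ± 238 against 570.5 ± 41.7. Its log2 fold change was -0.67 (SE 0.20), and it was -0.94 without control replicate 2 and -0.40 without control replicate 1. In each Period gene the order of the libraries was the same: control replicate 1 was highest, followed by control replicate 2, Tet3 mutant replicate 2 and Tet3 mutant replicate 1. *Per2* and *Per3* had the most similar profiles of all pairs among the 9 genes with a mean of at least 50, at a Euclidean distance of 0.232 between log2 profiles centred on each gene's mean, followed by *Per1* and *Per2* at 0.411.

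*Ciart*, which encodes a repressor that binds BMAL1 and whose promoter held the 3 E-boxes shown above, had the lowest values of the 10 genes. It had 61 and 50 normalized counts in the control pair, against 23 and 28 in the mutant pair, 55.5 ± 7.78 against 25.5 ± 3.54 (SD, n = 2 each), which was 2.13-fold lower, with a log2 fold change of -1.09 (SE 0.33). Its order of libraries was that of the Period genes. As few as 21.1 estimated reads stood behind a *Ciart* value, where counting error alone is 21.8%, against 2.35% for the highest value of the 10 genes. Without control replicate 2 the log2 fold change was -1.23.

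The cryptochromes, the partners of the PER proteins in repression, differed from each other. *Cry2* had 899 and 1065 normalized counts in the control pair, against 746 and 802 in the mutant pair, 982 ± 117 against 774 ± 39.6 (SD, n = 2 each), and a log2 fold change of -0.34 (SE 0.13) that was -0.22 without control replicate 2. Its groups did not overlap, but in contrast to the Period genes its highest library was control replicate 2. *Cry1*, which lies among the later peaking clock transcripts and is driven by E-boxes and ROR elements together, had 112 and 147 in the control pair, against 177 and 101 in the mutant pair. The mutants lay on either side of both controls, and the log2 fold change of *Cry1* was 0.06 (SE 0.34), against 0.25 without control replicate 2. It turned to -0.34 when Tet3 mutant replicate 1 was left out and to 0.46 when replicate 2 was.

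Thus the groups did not overlap for 5 of the 10 genes (*Per1*, *Per2*, *Per3*, *Ciart* and *Cry2*), each lower in the mutants, and for none in the other direction. Among all 16659 genes tested, 19.5% were lower in both mutants than in both controls and 19.6% were higher in both, together 39%. The median log2 fold change of the 10 genes was -0.39, against -0.0069 over all genes tested, and was -0.81 without control replicate 2. In limma over all genes tested, 0% passed an adjusted p of 0.05, while 6.68% had an unadjusted p under 0.05. The study itself reported differentially expressed genes with DESeq2, a model of raw counts that was not run here. As the 10 genes were chosen on this contrast, nothing further is read from the numbers above.

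**Figure D1:**
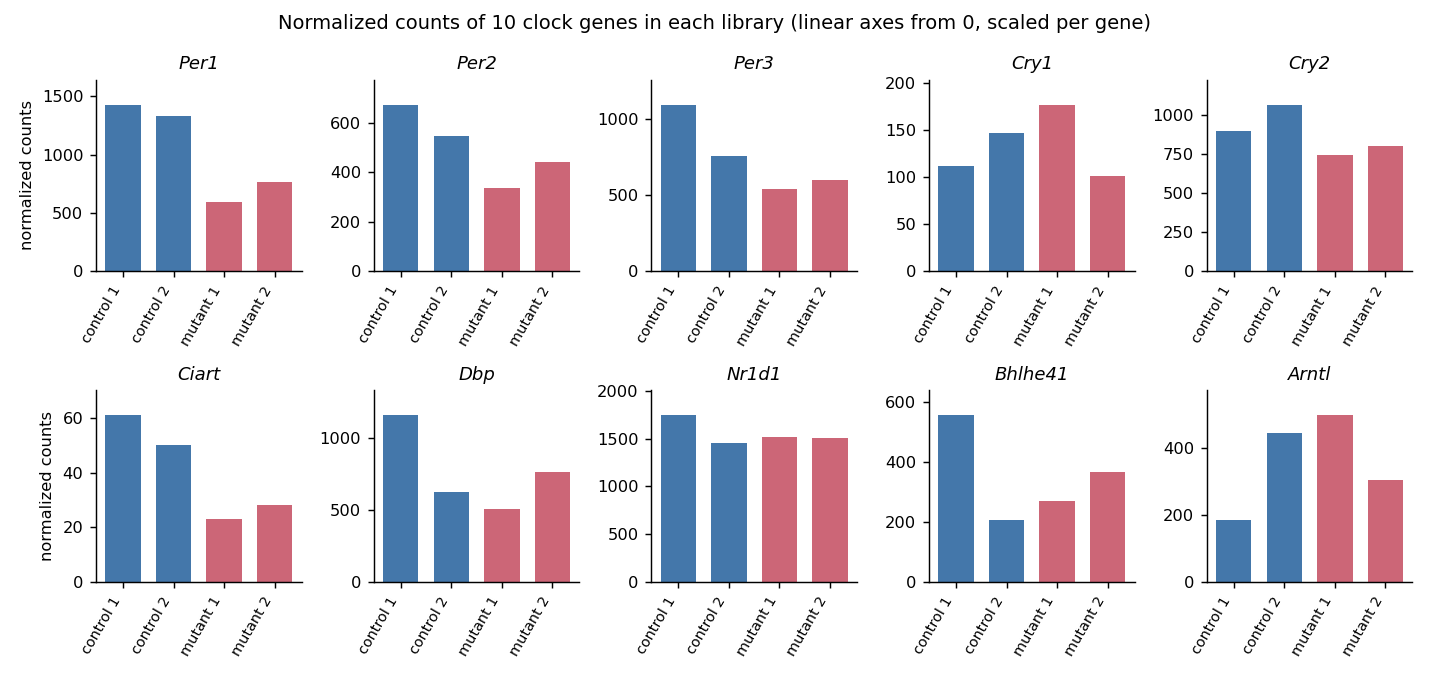
Normalized counts (vertical axes, linear, from 0 and scaled per gene) of the 10 genes in each of the 4 libraries, with 1 bar per library, controls in blue and Tet3 mutants in red. Both mutant bars stand below both control bars for *Per1*, *Per2*, *Per3*, *Cry2* and *Ciart*, while *Dbp*, *Bhlhe41* and *Arntl* differ most between the 2 controls.

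The output genes and *Arntl* showed another arrangement, in which the groups overlapped, and the controls of *Dbp*, *Bhlhe41* and *Arntl* lay far apart. *Dbp*, the PAR bZIP output factor, had 1157 and 623 normalized counts in the control pair, against 507 and 765 in the mutant pair. One control thus lay below a mutant, and the log2 fold change of -0.45 (SE 0.35) was -0.00046 without control replicate 1 and -0.89 without control replicate 2. *Bhlhe41*, which encodes the repressor DEC2, had 555 and 206 in the control pair, against 269 and 367 in the mutant pair. Both mutants lay between the controls, and the log2 fold change of -0.11 (SE 0.49) took opposite signs without control replicate 1 (0.61) and without control replicate 2 (-0.82). *Nr1d1*, the REV-ERBα gene, had 1745 and 1453 in the control pair, against 1516 and 1509 in the mutant pair. The mutants lay close together and between the controls, with a log2 fold change of -0.07 (SE 0.13) that was 0.058 without control replicate 1 and -0.21 without control replicate 2. This placing between the controls was found for 2 of the 10 genes, *Nr1d1* and *Bhlhe41*, and for 17.8% of all genes tested.

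*Arntl*, the activator gene, had 185 and 444 normalized counts in the control pair, against 496 and 304 in the mutant pair. Control replicate 1 was lowest and Tet3 mutant replicate 1 highest, and the log2 fold change of 0.44 (SE 0.47) was 1.07 without control replicate 2 and -0.19 without control replicate 1. The controls differed by 1.26 on the log2 scale in *Arntl* and by -1.43 in *Bhlhe41* (control replicate 2 minus replicate 1), both larger than the difference between the groups. Among the 10 genes these 2 had controls at least 1 apart on the log2 scale, as did 11.6% of all genes tested. Control replicate 1 was the highest library for 7 of the 10 genes, against 21.5% of all genes, and the lowest for *Arntl*, against 19.2%.

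The order of the libraries in *Arntl* was the exact reverse of that in *Dbp*. From high to low, *Dbp* ran through control replicate 1, Tet3 mutant replicate 2, control replicate 2 and Tet3 mutant replicate 1. The log2 ratio of *Dbp* to *Arntl* within a library, which does not depend on how libraries were scaled against each other, was 2.64 and 0.49 in the control pair, against 0.03 and 1.33 in the mutant pair. For this ratio 1 mutant lay between the controls. The same ratio of *Per1* to *Arntl* was 2.94 and 1.59 in the control pair, against 0.26 and 1.32 in the mutant pair. The groups did not overlap for it, nor for *Ciart* to *Arntl*, at -1.585 and -3.125 against -4.372 and -3.395. The ratios to *Arntl* of *Per2* (1.86 and 0.30 against -0.56 and 0.53), *Per3* and *Cry2* overlapped between the groups. The log2 ratio of *Per1* to *Dbp* was 0.30 and 1.10 in the control pair, against 0.23 and -0.0076 in the mutant pair, again without overlap. For *Ciart* to *Dbp* it was -4.22 and -3.61 in the control pair, against -4.40 and -4.72 in the mutant pair. The nearest control and mutant values were close in both, and each *Ciart* value carries a counting error of 12.6% to 21.8%. The share of all genes without overlap in such ratios was not computed. *Per2* and *Per3* behaved otherwise, as their ratios to *Dbp* overlapped between the groups, at -0.78 and -0.19 against -0.59 and -0.80 for *Per2*. The ratio of *Cry2* to *Dbp* overlapped as well. The mean difference in the ratio to *Dbp* (mutant minus control) was -0.59 for *Per1* and -0.65 for *Ciart*, and without control replicate 2 it was -0.19 and -0.34, so its size rested largely on that library.

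**Figure D2:**
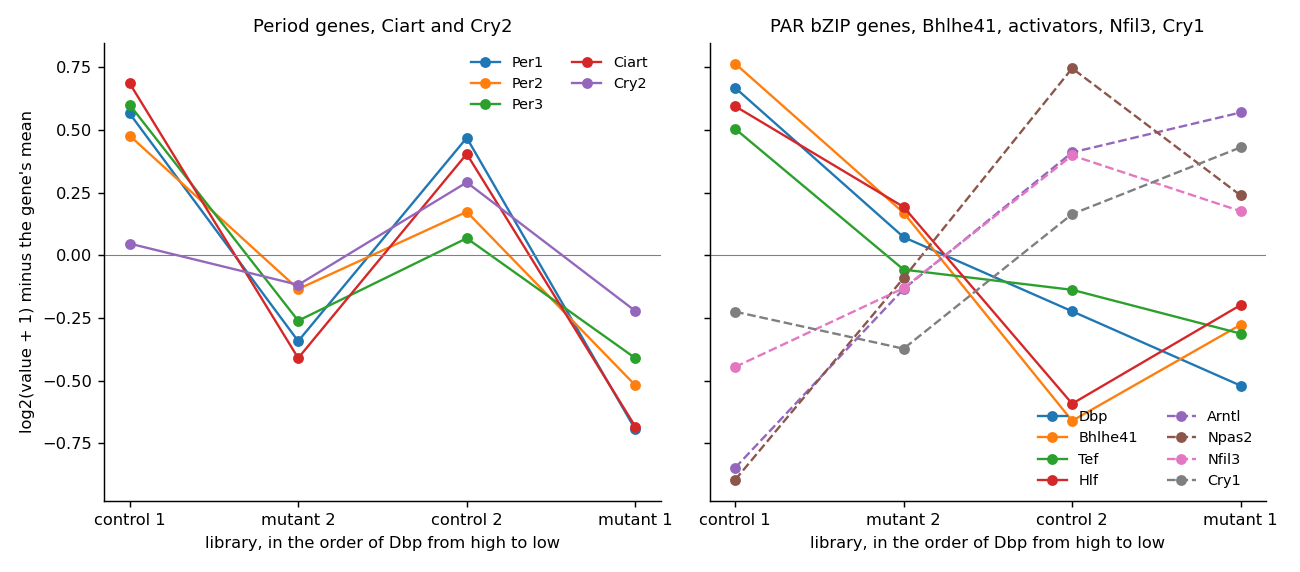
Centred expression, log2(value + 1) minus the mean of the gene over the libraries (vertical axis), in the 4 libraries placed by falling *Dbp* level, with 1 line per gene. On the left *Per1*, *Per2*, *Per3*, *Ciart* and *Cry2* are above 0 in both controls and below 0 in both mutants, and on the right *Arntl*, *Npas2* and *Nfil3* (dashed) are lowest in control replicate 1, where *Dbp*, *Bhlhe41*, *Tef* and *Hlf* (solid) are highest.

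Levels of different genes were compared per kilobase of exon. In controls the order of the mean normalized counts per kilobase was *Nr1d1* (519.7), *Dbp* (297.4), *Per1* (245.5), *Cry2* (155.4), *Per2* (104.0), *Per3* (96.0), *Bhlhe41* (56.6), *Arntl* (41.8), *Cry1* (38.8) and *Ciart* (24.6), beside a median of 54.1 over all genes tested. *Nr1d1* stood above 99.4% of the genes tested on this scale and *Ciart* above 28.9%. The control values of *Dbp* and *Per1* overlapped, as did those of each pair of neighbours from *Per2* to *Cry1*, so that the order within these stretches was not resolved. *Nr1d1* was apart from *Dbp*, *Per1* from *Cry2*, *Cry2* from *Per2* and *Cry1* from *Ciart*. In mutants the mean level per kilobase of *Per1* was 120.5, just below *Cry2* at 122.5, and that of *Arntl* (53.2) was above *Bhlhe41* (47.3). The remaining ranks were those of the controls.

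**Figure D3:**
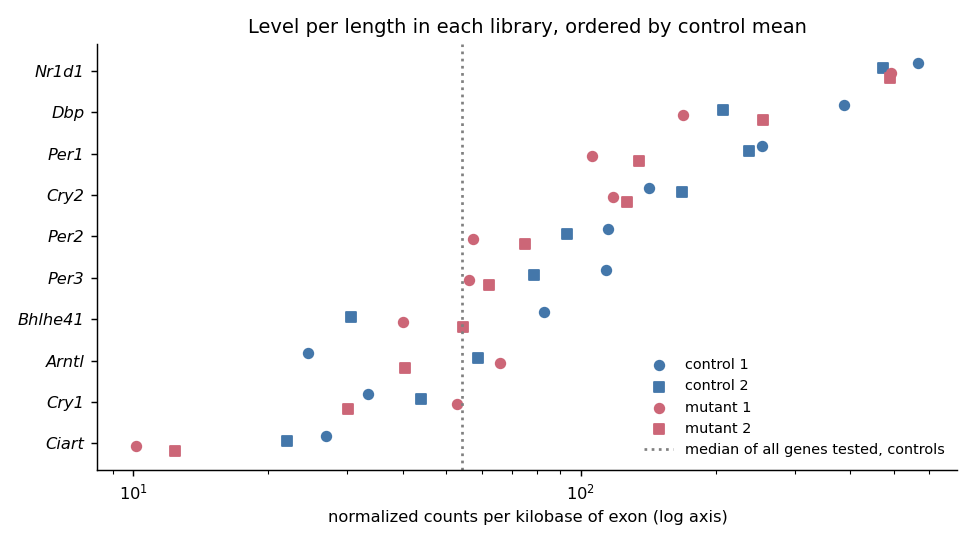
Normalized counts per kilobase of exon (horizontal log axis) of the 10 genes in each library, ordered by the control mean, with controls in blue, Tet3 mutants in red and the median of all genes tested in controls as a dotted line at 54.1. *Nr1d1* is highest in every library, and the mutant points of *Per1* lie left of its control points, near those of *Cry2*.

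Other genes overlap some of these loci, and the use of strand in counting is not given in the sources used here. On GRCm38, 539 of 2993 exonic bases of *Dbp* (chromosome 7, 45705088 to 45710203) lie opposite exons of *Sphk2*, 263 of 3077 in *Nr1d1* (chromosome 11, 98767932 to 98775333) opposite *Thra*, 1280 of 6720 in *Bhlhe41* (chromosome 6, 145858243 to 145865558) opposite *Gm43909*, 295 of 6320 in *Cry2* (chromosome 2, 92403646 to 92434043) opposite *D930015M05Rik* and 33 of 7523 in *Arntl* (chromosome 7, 113207465 to 113314126) opposite *Gm45355*. Reads on several genes were left out by the study's methods, so reads from the shared bases could be missing from these values. *Per1* (ENSMUSG00000020893, chromosome 11, 69095217 to 69109960), *Per2* (chromosome 1, 91415982 to 91459324), *Per3* (chromosome 4, 151003652 to 151044665), *Cry1* (chromosome 10, 85131700 to 85185064) and *Ciart* (chromosome 3, 95878503 to 95882251) shared no exonic base with another annotated gene.

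A wider set of 44 clock genes was listed from textbook knowledge, with earlier results of these data known, and examined with the same model. It leaves out the genes above, which were chosen on this contrast, so its counts and median do not cover the whole clock. Of the 43 tested, 0 had a limma adjusted p under 0.05, as for all genes, and the smallest was 0.681. Before adjustment 1 was higher and 2 were lower at a p under 0.05, beside 6.68% of all genes. On the log2 scale 21 were above and 22 below 0, with a median of -0.0042. The groups did not overlap in 11 of 43 genes lower in the mutants and 3 of 43 higher, beside 19.5% and 19.6% of all genes.

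Among the activators, *Clock* had 1527 and 1645 normalized counts in the control pair, against 1662 and 1593 in the mutant pair, a log2 fold change of 0.04 (limma, adjusted p = 0.931). Its libraries varied little. *Npas2*, a paralog of *Clock*, had 106 and 333 in the control pair, against 234 and 186 in the mutant pair, with both mutants between the controls as in *Bhlhe41*, and control replicate 1 was lowest as in *Arntl*. Its log2 fold change was 0.15, with -0.67 without control replicate 1 and 0.97 without control replicate 2. *Arntl2* had 82 and 50 in the control pair, against 97 and 72 in the mutant pair. Of the nuclear receptors, *Rora* had 1576 and 1380 in the control pair, against 1378 and 1417 in the mutant pair, *Nr1d2*, encoding REV-ERBβ, had 1423 and 906 against 907 and 1063 (a log2 fold change of -0.21, and of -0.53 without control replicate 2), and *Rorb* had 19 and 33 against 26 and 25.

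The remaining PAR bZIP genes, like *Dbp*, were highest in control replicate 1. *Tef* had 1710 and 1095 normalized counts in the control pair, against 970 and 1158 in the mutant pair, and *Hlf* had 739 and 324 in the control pair, against 426 and 559 in the mutant pair. The order of the libraries was that of *Dbp* for *Tef* and that of *Bhlhe41* for *Hlf*. The D-box repressor gene *Nfil3*, whose product opposes DBP, had 77 and 139 in the control pair, against 119 and 96 in the mutant pair, with control replicate 1 lowest. The log2 fold changes were -0.37 for *Tef*, -0.0042 for *Hlf* and 0.05 for *Nfil3*, and without control replicate 2 they were -0.69, -0.60 and 0.47. *Bhlhe40*, the paralog of *Bhlhe41*, had 1050 and 903 against 615 and 926.

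A list of 17 genes held kinases and ubiquitin ligases that act on PER and CRY proteins together with cofactors, namely the deacetylase gene *Sirt1*, the RNA-binding protein genes *Nono* and *Sfpq* and *Wdr5*, a subunit of histone methyltransferases. Of these 17 genes 0 passed the threshold, and their median log2 fold change was -0.04. *Csnk1d*, a kinase that marks PER proteins for degradation, had 1076 and 1171 normalized counts in the control pair, against 1042 and 1039 in the mutant pair. The 2 genes of the wider set with an unadjusted p under 0.05 that were lower in mutants belonged here, namely *Gsk3b*, with 1762 and 1799 in the control pair, against 1493 and 1494 in the mutant pair, and *Prkaa2*, an AMPK subunit, with 344 and 400 against 245 and 291. Their limma adjusted p was 0.681 in both cases. The gene that was higher was *Timeless*, which acts in replication fork protection in mammals, with 158 in each control and 199 and 235 in the mutant pair (limma, adjusted p = 0.681).

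Of 14 further genes known to cycle in many tissues, 13 were tested, with a median log2 fold change of 0.05 and 0 past the threshold. *Usp2*, a deubiquitinase gene, had 142 and 108 normalized counts in the control pair, against 121 and 135 in the mutant pair. *Tspan4* had 437 and 219 in the control pair, against 298 and 355 in the mutant pair, with both mutants between the controls and control replicate 1 highest, the arrangement of *Bhlhe41* and *Hlf*. *Tsc22d3*, which is also a glucocorticoid target, had 936 and 956 in the control pair, against 654 and 881 in the mutant pair, lower in both mutants with a limma adjusted p of 0.689. *Wee1*, the cell cycle kinase gene, had 187 and 217 in the control pair, against 148 and 186 in the mutant pair.

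**Figure D4:**
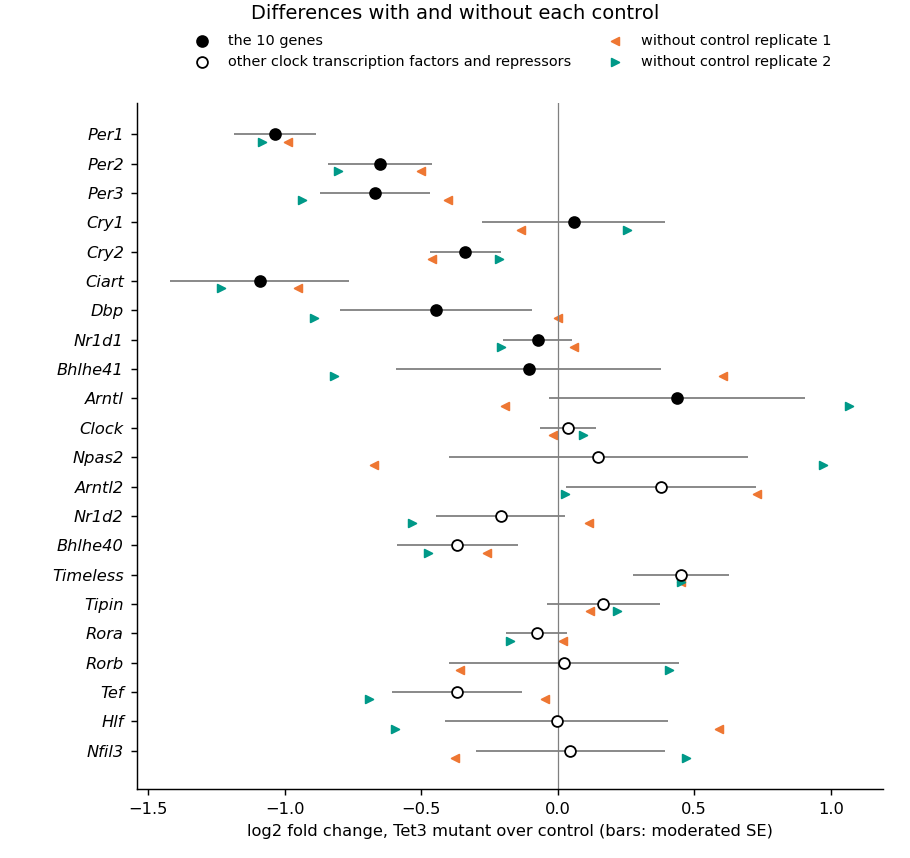
Log2 fold change of Tet3 mutant over control (horizontal axis, bars are the moderated standard error) for the 10 genes (filled) and 12 other clock transcription factors and repressors (open), with triangles for the value without each control. For *Per1*, *Per2*, *Per3*, *Cry2* and *Ciart* both triangles lie left of 0, which follows from groups that do not overlap. For *Bhlhe41*, *Arntl*, *Cry1*, *Nr1d1*, *Npas2*, *Hlf* and *Nfil3*, among others, they lie on opposite sides of 0.

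Genes with the profile most like *Per1* were taken from 12054 genes with a mean of at least 50 and a symbol that is not a clone name or identifier, by the smallest distance between centred log2 profiles over the 4 libraries. They were *Eva1a* (distance 0.176), *Ptprn2* (0.243), *Zmat4* (0.274), *Sik1* (0.288) and *Syt17* (0.322). *Sik1* was the most abundant of these, with 1353 and 1260 normalized counts in the control pair, against 691 and 874 in the mutant pair. Nearest to *Arntl* were *Neurl1a* (0.105), *Adora1* (0.175), *Myom1* (0.234), *Stk32a* (0.273) and *Ccdc114* (0.312). *Adora1* had 64 and 137 in the control pair, against 178 and 97 in the mutant pair.

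The 2 kinds of stimulus known to act on *Per1* were followed with listed target genes, each list holding *Per1* itself. *Per1* was chosen on this contrast. The counts and medians of these 2 lists include it, among the genes lower in both mutants. Of 16 cAMP-responsive and immediate early genes tested, 15 had a log2 fold change below 0, with a median of -0.29, and 6 were lower in both mutants than in both controls, beside 19.5% of all genes. The median was -0.076 without control replicate 2 and -0.013 without Tet3 mutant replicate 2. *Fosb* had 848 and 1162 normalized counts in the control pair, against 646 and 256 in the mutant pair. The summed level of this list was 12670 and 15986 in the control pair, against 12216 and 9383 in the mutant pair, lowest in Tet3 mutant replicate 2. Most genes of the list, *Fosb* among them, were lowest in that library. *Sik1*, which is on the list, was named above for its profile near that of *Per1*, so its likeness to *Per1* comes with that choice. It was lowest in Tet3 mutant replicate 1, with 1353 and 1260 in the control pair, against 691 and 874 in the mutant pair. Of 14 glucocorticoid targets 9 were below 0, with a median of -0.11 that lay between -0.34 (without control replicate 1) and -0.03 (without Tet3 mutant replicate 1) when single libraries were left out. Of the 14, 6 were lower in both mutants than in both controls and 2 were higher in both, beside 19.5% and 19.6% of all genes. Within that list *Errfi1* had 1113 and 1707 in the control pair, against 491 and 783 in the mutant pair, whereas *Fkbp5* had 309 and 289 in the control pair, against 362 and 729 in the mutant pair. Of 10 dissociation stress genes 8 were below 0, with a median of -0.12 that was -0.26 without Tet3 mutant replicate 1 and took the other sign, at 0.075, without Tet3 mutant replicate 2. No gene of these 3 lists passed the limma threshold over all genes tested.

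Markers of other cells differed in level between the libraries as well. Alveolar type 2 markers were below 0 in 10 of 10 genes, with a median of -0.71, and 8 were lower in both mutants than in both controls, beside 19.5% of all genes. The median was -0.39 without control replicate 2 and also without Tet3 mutant replicate 1, and -1.01 without either of the others. Their summed level was 16681 and 25097 in the control pair, against 11307 and 15141 in the mutant pair and the single values ran from 250 (*Lyz1*) to 5981 (*Abca3*), so no marker of these cells was near 0. Smooth muscle markers lay the other way, with 10 of 10 above 0 and a median of 0.52, which was 0.29 without control replicate 1 and 0.85 without control replicate 2. Ciliated cell markers were above 0 in 9 of 9 genes (median 0.78) and neutrophil markers in 8 of 8 (0.81), and 9 and 7 of these were higher in both mutants, beside 19.6% of all genes. Macrophage markers were above 0 in 14 of 15 (0.40), 9 of them higher in both mutants. T cell markers were above 0 in 10 of 10, with a median of 1.13 that was 0.13 without control replicate 2, in which their summed level was 282 against 1020 to 1071 in the other libraries. Mesothelial markers (5 genes) summed to 592 and 442 in the control pair, against 403 and 565 in the mutant pair. Most of this sum was *Krt19*, at 348 and 379 in the control pair and 331 and 480 in the mutant pair, and each of the other 4 genes was highest in control replicate 1. Club cell markers (5 genes) summed to 2384 and 1058 against 1563 and 2144, with control replicate 1 highest as for *Bhlhe41*. Of the mesothelial genes *Wt1* was nearest to 0, at 23 and 14 in the control pair and 5 and 4 in the mutant pair. The part of these cells, and of the hour of collection, in the levels of the clock genes was not tested.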

How the data were processed

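The unit of the deposited table is a score, since the authors divided gene counts by DESeq2 size factors and rounded the outcome, which leaves whole numbers that are not raw counts. Per the methods and the submitters' processing notes, rRNA-depleted stranded libraries were read single-end, trimmed with Trimmomatic 0.36, aligned to mm10 (GRCm38) by STAR 2.6.0c and assigned to genes by featureCounts (Subread 1.6.0), leaving out reads of several genes or places.

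Samples were grouped by title. Values were compared as log2(value + 1) in limma 3.58.1 (R 4.3.3; lmFit, eBayes with a mean-variance trend) over the 16659 genes with a mean of at least 10, with Benjamini-Hochberg adjustment over all of them and a threshold of 0.05. Fold changes are on that scale and understate changes of low genes. The study describes the 2 libraries of a group as independent animals. An exact permutation test of 2 against 2 cannot reach 0.05 and was not used. Exon lengths came from GENCODE vM21 (GRCm38), and 99.83% of genes matched by identifier. Scaling factors were estimated by likelihood from gaps and doubled values among low numbers. Estimated reads and counting errors cover counting alone, as PCR copies of one molecule were not told apart. Raw reads were not recovered, and no count model was run.

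The members and lists were chosen with earlier results of these data known. The named genes were the 10 genes, the wider clock set, the 5 nearest profiles to *Per1* and *Arntl*, and per marker list up to 3 high genes or those near 0. *Errfi1*, *Fkbp5*, *Fosb*, *Lyz1*, *Hal*, *Xist* and *Ddx3y* were named after their values were seen. Alternatives were 2 other pseudocounts, 2 other minimum means, TMM factors, equal totals, no trend, the replicate number as a block and each library left out. Values of some genes of the wider clock set are not reported here. Scripts were tested on simulated data.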

Additional observations from a re-analysis of the deposited data

How the results depend on the processing

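The number of genes called over all genes was 0 with TMM factors, equal library totals, a minimum mean of 1 or 50, a pseudocount of 0.5 or 8 and the replicate block, and 1 (*Hal*) without the mean-variance trend. Those settings gave 876 to 1637 genes at an unadjusted p under 0.05. For the wider clock set 0 were called in each of them. Its median log2 fold change, -0.0042, took the other sign with TMM factors (0.01) and with equal library totals (0.044), where the median of all genes was also shifted upwards. None of the 79 values of the 10 genes under these settings changed sign. The minimum mean, the trend and the replicate block cannot alter the log2 fold change of a gene. Only the pseudocounts, TMM factors and equal totals could have changed a sign.

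The replicate numbers were shared by controls and mutants, but with 2 pairs and a correlation of deviations of 0.13 they are not shown to pair the samples. With the replicate block 1637 genes had an unadjusted p under 0.05 in limma. The median of the 10 genes stayed at -0.39, which a balanced block cannot change.

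With 1 library left out, the lone sample of a group is assumed to vary like the others. Then 0 genes were called in each case, with 273 to 3366 at an unadjusted p under 0.05 in limma. The highest of these counts came without control replicate 1 and the lowest without Tet3 mutant replicate 1. The median of the 10 genes ranged from -0.81 (without control replicate 2) to -0.30 and that of the wider clock set from -0.053 to -0.019. Of the 10 genes 6 kept their sign, *Per1* (-1.21 to -0.86), *Per2* (-0.84 to -0.46), *Per3* (-0.94 to -0.40), *Ciart* (-1.23 to -0.95), *Cry2* (-0.46 to -0.22) and *Dbp* (-0.89 to -0.00046, the latter no difference, without control replicate 1), and 4 did not, *Arntl* (-0.19 to 1.07), *Bhlhe41* (-0.82 to 0.61), *Cry1* (-0.34 to 0.46) and *Nr1d1* (-0.21 to 0.058). For *Per1*, *Per2*, *Per3*, *Ciart* and *Cry2* the groups did not overlap, so leaving out 1 library could not change their sign. Depth limits *Ciart* most, with counting errors of 12.6% to 21.8% per value.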
